A study of Mus musculus with 6 samples.

Results

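The 1455 genomic regions described here carried a peak of heat shock factor 1 (HSF1) in 2 striatal cell lines after heat shock, and in neither line before it. They were chosen from 6577 regions, made by merging every peak of 4 ChIP-seq peak lists that shared at least 1 base. A region was taken when it held a peak of both lists at 42 °C and of neither list at 33 °C. The window of chromosome 13 from 21 to 24 Mb, which held a further 22 such regions, was left out. The presence of a peak in the 4 lists therefore chose the regions. Their occupancy at 42 °C and lack of a peak at 33 °C are a description, not a result.

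STHdhQ7/Q7 and STHdhQ111/Q111 are mouse striatal cell lines made from HdhQ7/Q7 wild-type and HdhQ111/Q111 knock-in embryos, and are called Q7 and Q111 below. The knock-in huntingtin of Q111 cells has an expanded polyglutamine tract. Both lines grew at 33 °C in medium with G418 and were used up to passage 15. HSF1 was precipitated with 1 antibody from untreated cells and from cells kept at 42 °C for 6 hours. Each of the 4 combinations of line and temperature is 1 library from 1 line per genotype, so no value below has a replicate error. The 2 control IgG libraries, from untreated cells of both lines, were not analysed here. The striatal identity of the lines was not checked, because peak positions hold no marker expression.

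HSF1 switches on the genes of the heat shock response. In unstressed cells it is held largely inactive by chaperones. Heat and other stresses that unfold proteins release it, and it then forms trimers that bind heat shock elements, inverted repeats of a short GAA-containing unit, in the promoters and enhancers of chaperone genes and many other genes. The response has been studied in Huntington's disease because chaperones act on misfolded polyglutamine proteins.

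The lists deposited by the authors had 260 (Q7) and 292 (Q111) peaks at 33 °C, and 6173 (Q7) and 2161 (Q111) at 42 °C. Each peak has a position on the mouse build mm9 and a score. The score is read here as the p-value of the peak caller on a scale of -10 times its base-10 logarithm, which is an inference. The lowest scores lay between 90 and 90.5 in all 4 lists. Read depth was unknown, and both the score and the number of peaks depend on it. Scores of the lines are therefore set against each other as percentiles, where 100 marks the highest score of a list. Where scores of both lines stand side by side, each ranks a peak within its own list. Many peaks are tied at 3100 in both 42 °C lists. It is the highest score of the Q111 list, but Q7 scores reach 3217, so 3100 is not a plain upper limit there. Why peaks are tied at 3100 is not known, and the order of the strongest peaks may not be that of their binding. A region without a peak at 33 °C is one with no peak above the lists' lowest score, and weaker binding there cannot be seen. No gene name or sequence is given, because no mm9 annotation or genome was used.

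The regions made up 22.1% of all merged regions (95% Wilson interval 21.1 to 23.1, counting error only). With the chromosome 13 window included, the background share of the same pattern was 22.5%, or 1477 of 6577 regions. Outside the window, they were 25% of the 5830 regions with a Q7 peak at 42 °C and none at 33 °C. They were 80.1% of the 1816 such regions with a Q111 peak. In sum they covered 0.95 Mb, with a median region width of 620 bases and a range from 285 to 1907 bases. Most were simple: 1445 held 1 peak of each line, 8 held 2 Q111 peaks under 1 Q7 peak, and 2 held 2 Q7 peaks over 1 Q111 peak.

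These heat-induced regions sat high in the Q7 list and near the middle of the Q111 list. Their Q7 scores ran from 90.3 to 3217 with a median of 544, which is the 81.9th percentile of the Q7 list (95% interval of the median 80.7 to 83.2). Their Q111 scores ran from 90 to 2427 with a median of 213, at the 50.8th percentile of the Q111 list (48.4 to 53.1). In the Q7 list the number of regions per 10% of the peaks, ordered by score, was 21 in the lowest and 436 in the highest 10%. In the Q111 list it stayed between 97 and 171, with the most between the 50th and 60th percentile and the fewest in the highest 10%. Overlap with the other list was part of the choice, and the Q7 list was the longer, so these positions describe the selection.

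The strongest peaks were represented differently from each whole list. These regions held 23.6% of all Q7 peaks at 42 °C and 48 of the 100 highest-ranked, which are 1.62% of that list. They held 67.7% of all Q111 peaks at 42 °C and 31 of the 100 highest-ranked, which are 4.63% of that list. Of the 85 Q7 peaks scoring 3100 or more, 39 lay in these regions, 31 of them at the tied score. None of the 12 Q111 peaks tied at 3100 did. The regions that also held a 33 °C peak, 231 outside the window with peaks of both lines at 42 °C, had higher medians in both lists. Their median score was 976 in the Q7 list (767 to 1233) and 727 in the Q111 list (619 to 855). Regions found at 42 °C in 1 line alone lay lower, with medians of 143 for Q7-only and 118 for Q111-only regions. All of these values come from the lists that defined the classes and carry no test.

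Regions strong in 1 line tended to be strong in the other, with wide scatter. Spearman's correlation of the Q7 and Q111 scores over the 1455 regions was 0.53. It was 0.67 over the 231 regions with a 33 °C peak. Regions are not replicates, and each line's scores share 1 library and its depth, so both values are descriptions. Both scores exceeded the median of their list in 688 regions, or 47.3% (44.7 to 49.9), against a background of 54.7% of all 1754 regions with a 42 °C peak of both lines, most of which are the regions themselves. The Q7 score alone did so in 567 regions and the Q111 score alone in 51. A further 149 regions were above the median in neither list.

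**Figure D1:**
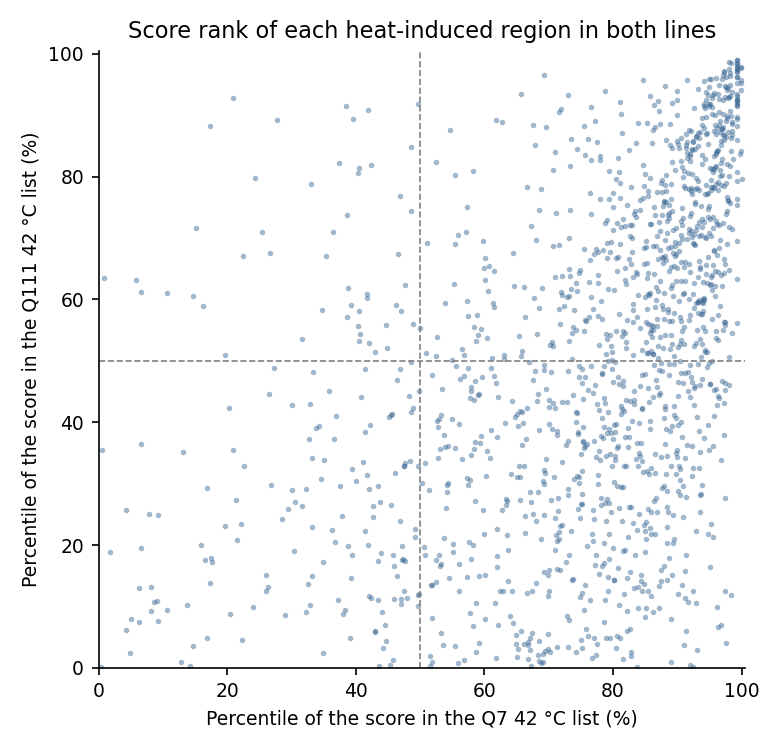
Percentile of the Q7 score (x axis) against percentile of the Q111 score (y axis) within the 42 °C lists, 1 point per region, 1455 regions; dashed lines mark the list medians. The upper right part holds 688 regions and the lower right 567, while the upper left holds 51.

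The median Q111 score grew across 5 equal groups of the regions ordered by Q7 score, 291 regions each. It was 135 (129 to 143) in the lowest group, with Q7 scores from 90.3 to 223, and 185 (170 to 214) in the middle group. It reached 514 (449 to 595) in the highest group, with Q7 scores from 1274 to 3217. The quartiles widened as well, from 107 and 204 in the lowest to 280 and 871 in the highest group. Of the 436 regions in the top 10% of the Q7 list, 75 were also in the top 10% of the Q111 list and 88 were not above its median. Of the 97 regions in the top 10% of the Q111 list, 4 were not above the median of the Q7 list. In all, 716 regions were not above the Q111 median and 200 not above the Q7 median. The regions were chosen from lists of unequal length, so nothing is read from this imbalance about the lines.

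**Figure D2:**
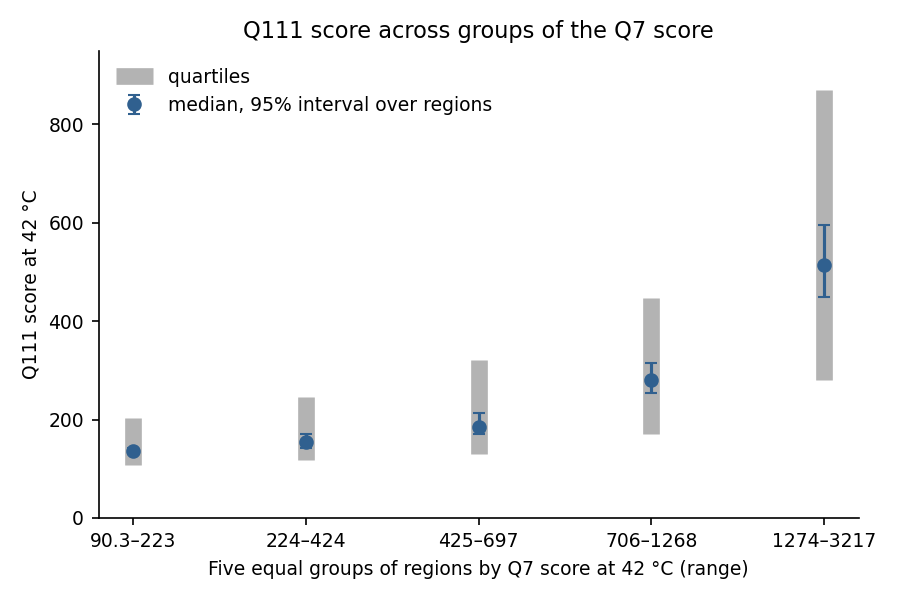
Q111 score at 42 °C (y axis) in 5 equal groups of the regions by Q7 score (x axis, score range of each group); points are medians with 95% order-statistic intervals over regions, grey bars the quartiles. The median grows from 135 in the lowest to 514 in the highest group, and the quartiles widen.

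The 10 regions with the best mean percentile over both lists were led by chr11:117183847-117184818. Its Q7 peak was among those tied at 3100, and its Q111 peak scored 2427, rank 22 of 2161. The second was chr8:37249739-37250606, with scores of 3100 in Q7 and 2317 in Q111 cells. Chr10:58797645-58798360 followed, with a Q7 score of 3194, the third highest of the list, and a Q111 score of 1851. All 3 stood in the top 3% of both lists, and none had a 33 °C peak within 1 Mb.

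The next were chr3:93375852-93376774, chr10:93082939-93084003, chr10:76111152-76112211 and chr4:33105010-33105784, with Q111 scores of 2167, 1716, 1993 and 1921. Their Q7 scores were 3179 on chromosome 10 from 93082939 and 3100 at the other three. The last of the 10 were chr19:7113526-7115432, chr4:57685831-57686597 and chr6:86130360-86131076. Of these, chr4:57685831-57686597 had the lowest Q7 score, 2760 at rank 102, and its Q111 score of 2066 stood at rank 33. The nearest 33 °C peak lay 166776 bases or more from each of the 10 regions, so none bordered a site with a 33 °C peak.

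Other regions stood near the top of the Q7 list and at the bottom of the Q111 list. The largest such gap was at chr1:193013321-193014290, where the Q7 peak scored 2228, rank 147, and the Q111 peak 94.8, rank 2073. The Q7 peak was 970 bases wide and the Q111 peak inside it 468 bases. At chr15:32252070-32253015 the Q111 score of 90 was tied as the lowest of its list and the Q7 score was 1165. The other three of the 5 widest gaps were chr7:91695116-91695855, chr19:37960974-37961647 and chr18:62993466-62993861, with Q7 scores of 1112, 1246 and 1910 and Q111 scores from 90.6 to 97.4. With a minimum score of 100, all 5 would count as regions of Q7 cells alone.

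The opposite order was found at chr18:12154313-12154948, with a Q111 score of 1091, rank 155, and a Q7 score of 113, rank 4886. There the Q111 peak was the wider, at 636 against 261 bases, and enclosed the Q7 peak. Chr2:148317786-148318427 had scores of 805 in the Q111 and 109 in the Q7 list. Chr10:8637198-8637802 had 833 and 123. At chr9:43133373-43133954 and chr10:78175585-78176045 the Q111 scores were 299 and 297 and the Q7 scores 91.1 and 95.7. The Q7 minus the Q111 percentile lay between -72 and -57.4 points in these 5 regions, and between 90 and 93.5 points in the 5 of the opposite order. Whether the lines differ at any of them could not be tested with 1 library each.

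Peak centres of the lines, taken as the midpoints of the called peaks, lay close together. The regions were chosen for overlapping peaks of both lines, which by itself limits how far apart the midpoints can lie. The distance to be found from overlap alone was not computed, so closeness is in part a product of the choice. The lists give no point of strongest signal, so midpoints do not place binding within a peak. The median distance between the centres was 44.5 bases (42 to 47), with quartiles of 21 and 78.5 bases. Library fragments were gel-selected at 200 to 300 bases. The centres were at most 100 bases apart in 84.0% of the regions (82.0 to 85.8) and at most 200 bases apart in 96.8%. The shift had no preferred side: the Q111 centre had the higher coordinate in 716 of 1455 regions, or 49.2% (46.6 to 51.8). In the 231 regions with a 33 °C peak the median distance was 51.5 bases (43 to 60.5), an interval that overlaps that of the heat-induced regions. Such overlap does not show that the distances are alike.

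The 46 regions with centres over 200 bases apart had broad Q7 peaks. Their median Q7 width was 1166 bases, against 589 bases in the remaining regions, and the Q7 peak was the wider in 45 of the 46. Where a Q111 peak lies inside a Q7 peak, centres can be that far apart only if the Q7 peak is much the wider. These widths therefore follow in part from the choice by distance, and nothing is read from them about the lines. In 6 of the 46 regions a line had 2 peaks, of which only the stronger gave the centre. The largest distances were 686 bases at chr5:125869307-125871190 and 668 bases at chr15:61363645-61365446. At the former 2 Q111 peaks lay under the Q7 peak, and the distance is to the stronger of them. At the latter the Q7 peak of 1802 bases held a Q111 peak of 439 bases near its lower end.

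The Q7 peak was the broader in most regions. Median widths were 597 bases in Q7 (586 to 610) and 446 bases in Q111 cells (435 to 454), and the median ratio within a region was 1.33 (1.32 to 1.36). The Q7 peak was wider in 1245 regions, or 85.6% (83.7 to 87.3), against a background of 83.6% over all regions with a 42 °C peak of both lines. The Q111 peak lay wholly inside the Q7 peak in 929 regions, or 63.8% (61.3 to 66.3), where the background was 61.6%. The background consists mostly of these regions, so nearness to it says little. In the separate class of 231 regions with a 33 °C peak, the Q7 peak was wider in 78.4% (72.6 to 83.2), and the median width ratio was 1.21 (1.15 to 1.27). Neither interval overlaps that of the heat-induced regions. The Q111 peak lay wholly inside the Q7 peak in 55.4% of that class (49 to 61.7), an interval that overlaps theirs. Such overlap does not show that the shares are alike, and an interval of their difference was not computed. Width also moved with score within each list, with Spearman's correlations of 0.54 in Q7 and 0.50 in Q111 cells. Depth was unknown, so line and library cannot be told apart in these widths.

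**Figure D3:**
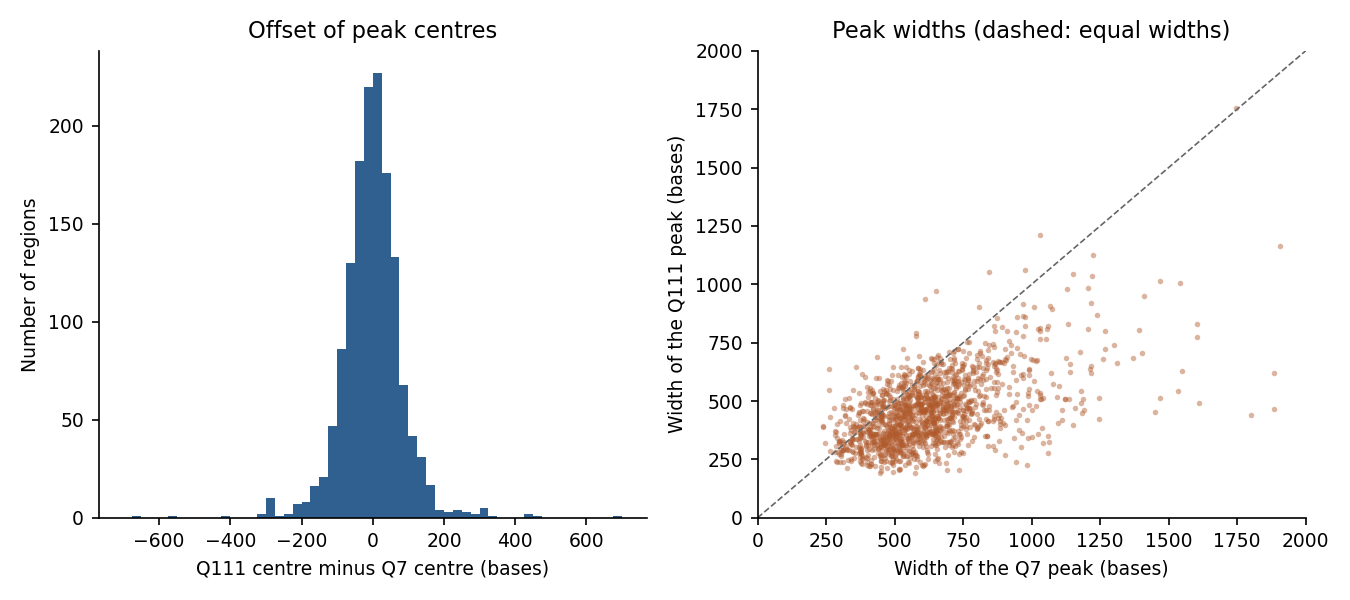
Left, number of regions (y axis) by distance of the Q111 peak centre from the Q7 peak centre in bases (x axis, bins of 25 bases). Right, width in bases of the Q7 peak (x axis) and the Q111 peak (y axis) of each region, with the dashed line at equal widths; 1245 of 1455 points have the wider Q7 peak.

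The 5 widest regions were mostly single broad Q7 peaks. Chr19:7113526-7115432, among the 10 best by mean percentile, was the widest at 1907 bases, with a Q111 peak of 1162 bases inside it. It was followed by chr5:125869307-125871190 at 1884, chr19:5841405-5843287 at 1883 and chr15:61363645-61365446 at 1802 bases. In the fifth, chr7:52123806-52125571, the region of 1766 bases was made of 2 Q7 peaks, the stronger 1031 bases wide. A broader single Q7 peak, named after its values were seen, lay at chr11:76098940-76100703, where the Q7 peak of 1747 bases matched a Q111 peak of 1753 bases. At chr5:125869307-125871190 a single Q7 peak covered 2 Q111 peaks, which scored 184 and 691. This was 1 of the 8 regions with 2 Q111 peaks, whose Q7 peaks measured from 556 to 1884 bases.

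A pair of regions with a 33 °C site beside them stood together on chromosome 5. The neighbour of chr5:125869307-125871190, chr5:125871827-125872475, was named after its values were seen. It had the fifth highest Q7 score, 3182, and a Q111 score of 1408, without a peak at 33 °C. The gap between the pair was 636 bases. A further 485 bases on began a region occupied in every library, where the 33 °C peaks scored 464 in Q7 and 1159 in Q111 cells and both 42 °C peaks scored 3100. The 3 regions thus held peaks of both lines at 42 °C, and the last alone had a peak at 33 °C.

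Few of the 1455 regions, and few of those found at 42 °C in 1 line alone, bordered a site with a 33 °C peak. Of the 1455, 15 lay within 5 kb of a 33 °C peak, or 1.03% (0.626 to 1.69), and 33 within 20 kb. The share within 5 kb was 0.686% of the Q7-only and 0.554% of the Q111-only regions. The closest of the 15 was chr11:68936753-68937325, 41 bases from a Q111 peak at 33 °C that scored 582. Next were chr9:40607825-40608550, 201 bases from a Q111 peak scoring 1027, and chr6:29337615-29338275, 292 bases from a Q7 peak scoring 90. These 3 are the regions just inside the rule on 33 °C peaks. The 15 regions spanned nearly the whole Q7 list, from percentile 4.87 to 99.9 with a median of 84.8.

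Nearness to a 33 °C site was not shown to separate these regions from those found in Q7 cells alone. Within 20 kb of a region with a 33 °C peak lay 2.27% of the former and 1.76% of the 4375 Q7-only regions. The difference was 0.508 percentage points with a 95% Newcombe interval from -0.272 to 1.47. At 5 kb it was 0.345 points (-0.154 to 1.04) and at 100 kb 1.41 points (-0.0191 to 3.00). All 3 intervals include 0, and differences up to their upper ends remain possible.

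Some regions lay just inside or outside the other limits of the rule. The pair of peaks that shared the fewest bases shared 50. Of the 4375 Q7-only regions outside the window, 38 had a Q111 peak at 42 °C within 500 bases, the nearest 44 bases away. Of the 361 Q111-only regions outside the window, 7 had a Q7 peak within 500 bases. At the lower end of the scores, 21 regions had a Q7 score under 100, 100 a Q111 score under 100, and 6 both. A minimum score of 100 gave 1357 regions. The 5 lowest by mean percentile were chr11:3023627-3024252, chr6:47730392-47730870, chr8:11259761-11260401, chr4:116358307-116358860 and chr13:52065438-52065941, with all scores between 90 and 99.3.

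Heat-induced regions of both lines were about as close to another HSF1 region as all regions were. Another merged region lay within 20 kb of 511 regions, or 35.1% (32.7 to 37.6), where the background over all merged regions was 33.8%. Within 5 kb the share was 17.0%, against a background of 16.3%, and within 100 kb it was 66.8%, against 67.5%. The median gap to the nearest other region was 44.4 kb (37.3 to 50.6). Of the 247 regions with a neighbour within 5 kb, the nearest was a Q7-only region in 145 cases and another of the 1455 in 70. It was a Q111-only region in 21 and a region with a 33 °C peak and both 42 °C peaks in 11.

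A smaller share of the 1455 regions had another region nearby than of the regions with a 33 °C peak and both 42 °C peaks. Of the 231 regions with a 33 °C peak and both 42 °C peaks, 53.2% (46.8 to 59.6) had another region within 20 kb. The difference was -18.1 percentage points (95% Newcombe interval -24.9 to -11.2), and at 5 kb it was -18.5 points (-25.1 to -12.3). At 100 kb it was -12.8 points (-18.1 to -6.72). The interval treats regions as independent, which neighbours are not, and covers counting error only. The 231 regions had higher median scores, and this comparison was not split by score. Another region of the same class lay within 5 kb of 5.7% of the 1455 regions and 21.6% of the 231. Within 100 kb these shares were 27.5% and 28.6%. For any other merged region within 20 kb, the difference from Q7-only regions was 2.98 points (0.196 to 5.82). Both classes were then split by Q7 score into 5 groups of equal total size. The difference ranged from -7.06 to 5.44 points, and every interval included 0. The group of highest scores, with 858 of the 1455 regions, gave the 5.44 points (-0.86 to 11.4). It spanned Q7 scores from 437 to 3217, so the classes were not matched by score within it. The lowest group gave 4.13 points, and the groups between gave -2.4, -7.06 and -0.181 points. Whether score accounts for the difference over all regions was not tested.

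**Figure D4:**
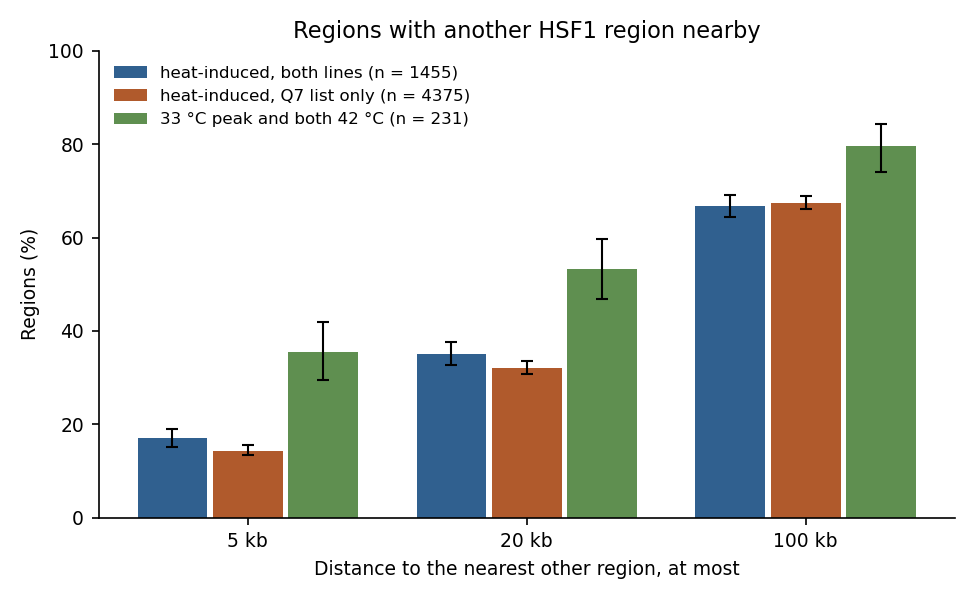
Share of regions (y axis, %) with another merged region within 5, 20 or 100 kb (x axis), for the 1455 heat-induced regions of both lines, the 4375 of the Q7 list alone and the 231 with a 33 °C peak and both 42 °C peaks; bars show shares and lines 95% Wilson intervals. At 20 kb the shares are 35.1%, 32.1% and 53.2%.

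Among themselves, 168 of the 1455 regions, or 11.5% (10.0 to 13.3), lay within 20 kb of another one. They formed 77 groups, of which 66 were pairs, 8 held 3 regions and 3 held 4. The tightest group of 4 lay on chromosome 19 from 5841405 to 5848779, within 7.38 kb. Its Q7 scores were 966, 671, 1840 and 361 in order of position, and its Q111 scores 344, 120, 366 and 209. The third region was the highest in both lists and the first was next, while the order of the remaining pair differed. No other region, occupied at 33 °C or found in 1 line, fell between them.

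The other groups of 4 spread over about 30 kb each. On chromosome 7 from 135666779 to 135698532 the Q7 scores were 1110, 185, 765 and 769 and the Q111 scores 645, 115, 144 and 263. Here the order of the 4 regions was the same in both lines. On chromosome 10 from 80123851 to 80158295 the Q7 scores were 2608, 998, 289 and 389 and the Q111 scores 932, 375, 96.1 and 139. The order again was the same in both lines, and 1 Q7-only region lay between the members of the group.

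Every autosome and the X chromosome held heat-induced regions of both lines. Chromosome 2 held the most, 134, and the X chromosome the fewest, 22. The share of heat-induced Q7 regions that were also found in Q111 cells ran from 20% on chromosome 12 (15 to 26.2) to 29.5% on chromosome 2 (25.4 to 33.8). The share of heat-induced Q111 regions also found in Q7 cells ran from 67.3% on chromosome 14 (53.8 to 78.5) to 91.5% on chromosome 7 (83.4 to 95.8). Chromosome 7 thus held 75 shared and 7 Q111-only regions, and chromosome 14 held 35 and 17. These extremes were picked from 20 chromosomes after their values were seen, and no test was made.

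**Figure D5:**
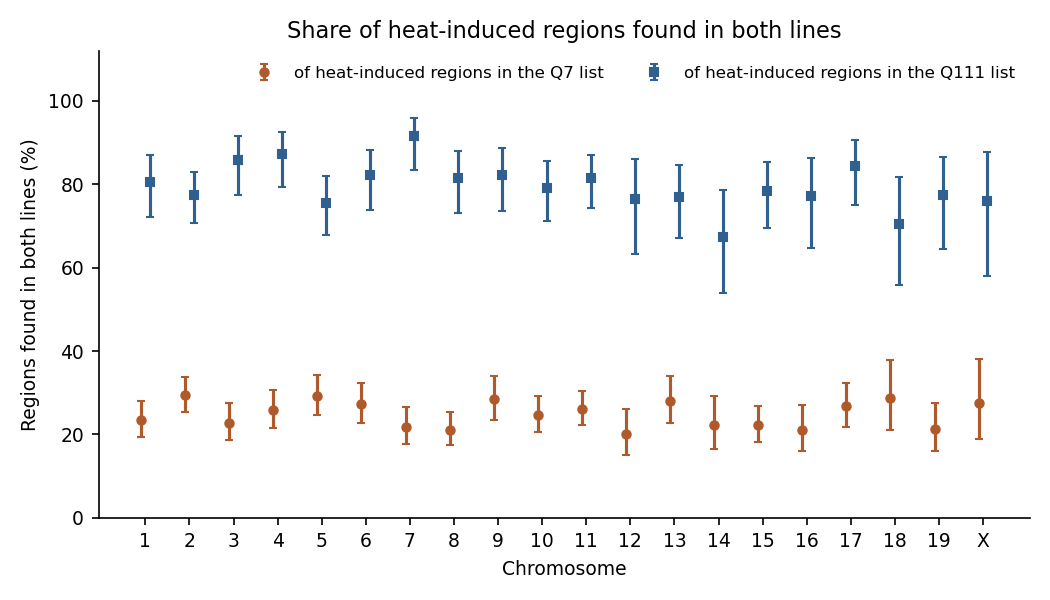
Share of heat-induced regions found in both lines (y axis, %) by chromosome (x axis), as a share of those in the Q7 list (circles) and in the Q111 list (squares), with 95% Wilson intervals. Q7 shares lie between 20% and 29.5% and Q111 shares between 67.3% and 91.5%.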

How the data were processed

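HSF1 ChIP-seq was deposited as 1 peak list per library for 4 libraries, 1 per group. Formaldehyde at 1% fixed the chromatin, and libraries had 18 PCR cycles and a gel cut, per the labels' protocols. Peaks come from MACS 1.4.0rc2 on mm9, per the submitters' processing notes. The lists deposited by the authors give a start, an end and a score per peak. The sources used here give no aligner, background library or read totals, so the depth and the precision it sets are unknown.

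Peaks were merged into regions in Python 3.11.15 with pandas 2.3.3 and numpy 2.4.6, intervals computed with scipy 1.17.1 and plots drawn with matplotlib 3.10.9. Bedtools 2.31.1 gave the same number of regions, 6577. All 6422 regions of simulated lists received their planted class. Simulated regions lay far apart and their peaks overlapped by design, so this checks only that the code runs correctly on simple cases. Close neighbours, double peaks and the chromosome 13 window were not simulated. In a region with 2 peaks of a list, the higher-scoring was used. Coordinates count from 1. Medians carry 95% order-statistic intervals and shares Wilson intervals, over regions. With 1 library per group, no p-value was computed.

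The regions and the rules were chosen with earlier results of these data known. Regions named are the 10 best and 5 lowest by mean percentile, the 5 with the largest percentile gap each way, the 5 widest, the 3 nearest a 33 °C peak and the 3 largest groups within 20 kb. The pairs of largest centre distance were added after their values were seen. Planned searches for heat shock elements and gene starts need an mm9 genome and annotation and were not run. The gene and promoter tables at hand are on another build and were not used.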

Additional observations from a re-analysis of the deposited data

How the results depend on the processing

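The number of regions, the score correlation, the centre distance, the share with the wider Q7 peak and the share with another of the regions within 20 kb were recomputed under 5 other settings each. A further 3 settings applied to 1 result each, and 2 more for the number of regions were chosen after seeing the data. Of the 30 values obtained, 26 lay inside the 95% interval of the value above or, for the number of regions, less than 1.5 times away. The interval used for the correlation, not given above, ran from 0.48 to 0.56. It treats regions as independent, though they are not replicates. The number of regions ranged from 1100, with the Q7 list at 42 °C trimmed to the length of the Q111 list, to 1477 with the chromosome 13 window kept. Requiring 50% of the shorter peak to be shared left 1454 regions, and requiring no 33 °C peak within 20 kb left 1422. Spearman's correlation was 0.49 over the 1416 regions below the tied score of 3100. With the trimmed list the Q7 peak was wider in 89.4% of regions. The share of regions near another was 9.73% with a minimum score of 100. By construction it was 5.70% at a distance of 5 kb and 27.5% at 100 kb. The cause was not tested for the share at a minimum score of 100, nor for the wider Q7 peak with the trimmed list. The 6 settings foreseen for heat shock elements and gene starts were not run. No paired analysis was possible because each group holds 1 library. Unknown depth limits every score, width and absence of a peak above.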
